A study of Drosophila melanogaster with 6 samples.

Results

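The 50 genes described here encode the stable non-coding RNAs that work in splicing and in a few other RNA-protein machines of the fly cell. They were all the entries of the brain count table whose name begins with snRNA:, scaRNA:, 7SLRNA, RNaseMRP or RNaseP:RNA, and they were taken from 16725 genes in all. By class they were 5 genes for U1, 6 for U2, 3 for U4, 7 for U5, 3 for U6, 2 for the 7SL RNA, 15 scaRNAs, and a single gene each for U11, U12, U4atac, U6atac, U7, U3, 7SK, RNase P RNA and RNase MRP RNA.

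Small nuclear RNAs (snRNAs) are the RNA cores of the spliceosome. U1 pairs with the splice donor and U2 with the branch point, and U4, U5 and U6 join as a tri-snRNP, while U11, U12, U4atac and U6atac take these places in the minor spliceosome, which removes a rare class of introns. Small Cajal body RNAs (scaRNAs) guide the methylation (names with Me) and pseudouridylation (names with Psi) of snRNAs. The remaining members are 7SK, which holds the elongation kinase P-TEFb inactive, 7SL, the RNA of the signal recognition particle (SRP) that brings secreted proteins to the endoplasmic reticulum, U7, which serves the 3′ end processing of histone mRNA, U3, which serves pre-rRNA processing, and the RNAs of RNase P and RNase MRP, which mature tRNA and rRNA precursors. Mature forms of most of these RNAs carry no poly(A) tail.

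Brains of 5-day-old adult Drosophila melanogaster were pooled at about 15 per sample, and their total RNA was divided between rRNA depletion, in which custom DNA probes and RNase H destroy the rRNA, and polyA enrichment. There were 2 rRNA-depleted and 2 polyA-enriched libraries, numbered 1 and 2 within each type, made with a directional kit. The study's methods name Canton-S stocks, and the labels give neither sex nor treatment. The comparison of the types, as labelled, asks which RNAs each method recovers. The comparison of the numbers describes how libraries of 1 type differed. The study's methods say that extracted RNA was divided between the types, but whether libraries with 1 number hold the same RNA is not given in the sources used here, so they may not be independent samples. In bulk brain RNA, fewer cells of a type and less RNA per cell cannot be told apart.

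Libraries held 14295047 and 12142737 counts in rRNA-depleted 1 and 2, against 13821678 and 11838449 in polyA-enriched 1 and 2. A count of 0 therefore allows up to 3 counts, or 0.210 to 0.253 CPM (counts scaled to library size). The libraries separated by number for these RNAs. The 50 members together held 22020 and 25275 counts in rRNA-depleted 2 and polyA-enriched 2, against 580 and 557 counts in rRNA-depleted 1 and polyA-enriched 1. The type labels did not order these sums, since polyA-enriched 2 had the highest and rRNA-depleted 1 stood close to the lowest.

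Of the 50 members, 34 had a count in at least 1 library, 17 had counts in all 4 libraries and 16 had none in any. At least 1 count was seen for 19 and 29 members in rRNA-depleted 1 and 2, against 27 and 29 members in polyA-enriched 1 and 2. At least 10 counts were seen for 8 and 15 members in rRNA-depleted 1 and 2, against 8 and 12 members in polyA-enriched 1 and 2. Counts were concentrated on few genes. The 3 members with the highest totals, 7SK, RNase MRP RNA and RNase P RNA, held 73.6% and 86.3% of the members' counts in rRNA-depleted 1 and 2, against 71.3% and 88.9% in polyA-enriched 1 and 2. Another 18 members had between 1 and 20 counts over the 4 libraries together.

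**Figure D1:**
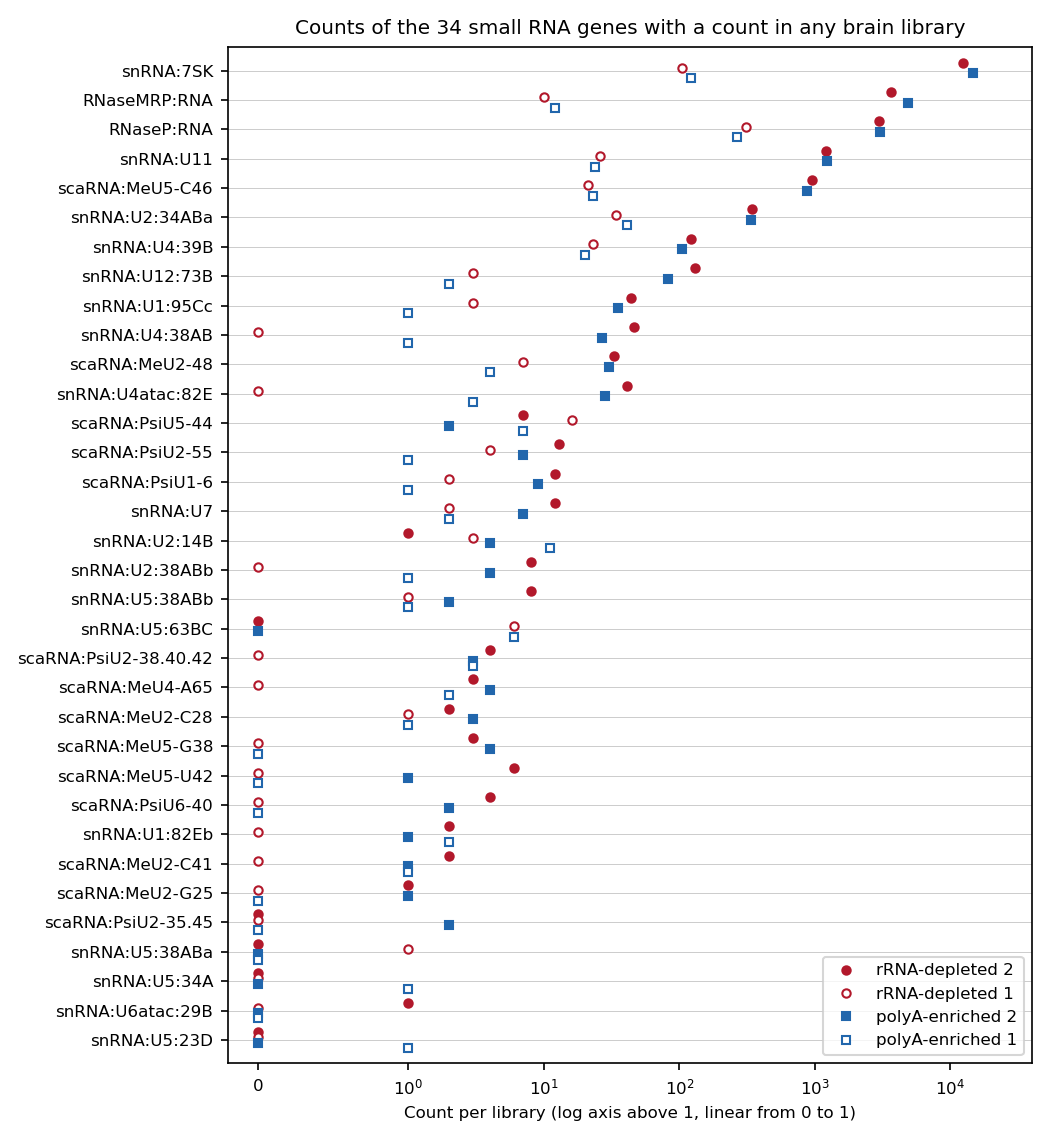
Counts per library of the 34 small RNA genes with at least 1 count, on a log axis that is linear between 0 and 1, with 1 point per library and genes ordered by total count. The points of rRNA-depleted 2 and polyA-enriched 2 lie together and apart from those of rRNA-depleted 1 and polyA-enriched 1 for the upper genes, as for 7SK with 12378 and 14595 against 105 and 121 counts.

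The major spliceosomal snRNAs exist in several gene copies, and for U1, U2 and U4 a single copy carried most of the counts. U1 RNA, which recognises the 5′ splice site, was counted almost entirely on snRNA:U1:95Cc (3R:23826334-23826497, dm6), in an intron of CG34355 on the same strand. This copy had 3 and 44 counts in rRNA-depleted 1 and 2, against 1 and 35 counts in polyA-enriched 1 and 2, which was 94.3% of all U1 counts. snRNA:U1:82Eb had 0 and 2 counts in rRNA-depleted 1 and 2, against 2 and 1 counts in polyA-enriched 1 and 2. The copies snRNA:U1:21D, snRNA:U1:95Ca and snRNA:U1:95Cb had 0 counts in all 4 libraries. All 5 U1 genes have the same annotated length of 164 bp, and 95Cb lies in the same gene, CG34355, as 95Cc. The sequences of the copies were not compared here, and the handling of reads that match several places is not given in the sources used here, so a count of 0 on a gene with copies is a count for that entry and not a level of the RNA.

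U2 RNA, which pairs with the branch point, followed the same form. snRNA:U2:34ABa (2L:13211925-13212116), which lies between genes, had 34 and 343 counts in rRNA-depleted 1 and 2, against 41 and 338 counts in polyA-enriched 1 and 2, and held 95.9% of the U2 counts. Both numbered 2 libraries were above both numbered 1 libraries in CPM, as for 28.5% of all genes with a count, while the types overlapped. The neighbouring copies 34ABb and 34ABc and the copy 38ABa had no count, and snRNA:U2:38ABb had 0 and 8 counts in rRNA-depleted 1 and 2, against 1 and 4 counts in polyA-enriched 1 and 2. snRNA:U2:14B on the X chromosome was an exception to the split by number, with 3 and 1 counts in rRNA-depleted 1 and 2, against 11 and 4 counts in polyA-enriched 1 and 2. It was the only member for which both rRNA-depleted libraries were below both polyA-enriched libraries in CPM. Across all 13776 genes with a count, 21.7% had that arrangement.

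U4 RNA, which is carried into the spliceosome paired with U6, was counted on 2 of its 3 genes. snRNA:U4:39B (2L:21215036-21215178), in an intron of Atg18b on the same strand, had 23 and 122 counts in rRNA-depleted 1 and 2, against 20 and 105 counts in polyA-enriched 1 and 2. snRNA:U4:38AB had 0 and 46 counts in rRNA-depleted 1 and 2, against 1 and 27 counts in polyA-enriched 1 and 2. The 39B copy held 78.5% of U4 counts in all libraries together, and 72.6% and 79.5% in rRNA-depleted 2 and polyA-enriched 2, so the 38AB copy had its share in the libraries numbered 2. The third gene, snRNA:U4:25F, had no count.

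U5 RNA, which aligns the exon ends, had 7 genes and a sum of only 27 counts over the 4 libraries. snRNA:U5:38ABb had 1 and 8 counts in rRNA-depleted 1 and 2, against 1 and 2 counts in polyA-enriched 1 and 2. snRNA:U5:63BC had 6 and 0 counts in rRNA-depleted 1 and 2, against 6 and 0 counts in polyA-enriched 1 and 2. These copies ran in opposite directions between the numbers, and 63BC was the only member for which both libraries numbered 2 were below both numbered 1 in CPM, an arrangement seen for 24.8% of all genes with a count. Single counts fell on 38ABa in rRNA-depleted 1 and on 34A and 23D in polyA-enriched 1, and 35D and 14B had none. Summed over its copies, U5 had 8 and 8 counts in rRNA-depleted 1 and 2, against 9 and 2 counts in polyA-enriched 1 and 2, and it was the only class with counts whose mean share was not higher in the libraries numbered 2.

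U6 RNA, the catalytic partner of U2, was not counted at all. Its 3 genes, snRNA:U6:96Aa, 96Ab and 96Ac, lie within 1234 bp of each other on 3R, each is annotated at 107 bp, and each had 0 counts in all 4 libraries. Over U1, U2, U4, U5, U6 and 7SL, whose genes are copies for 1 RNA, 14 of 26 genes had no count, against 1 of the 9 genes that stand alone in their class and 1 of the 15 scaRNAs, which are different RNAs.

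The minor spliceosome was represented by U11 and U12 above all. U11 RNA, the counterpart of U1, comes from a single gene (3L:3893056-3893330) on the strand opposite to Fie. It had 26 and 1210 counts in rRNA-depleted 1 and 2, against 24 and 1224 counts in polyA-enriched 1 and 2. U12 RNA, the counterpart of U2, comes from snRNA:U12:73B (3L:16653769-16654006) on the strand opposite to Baldspot, and had 3 and 131 counts in rRNA-depleted 1 and 2, against 2 and 82 counts in polyA-enriched 1 and 2. snRNA:U4atac:82E, in an intron of cno, had 0 and 41 counts in rRNA-depleted 1 and 2, against 3 and 28 counts in polyA-enriched 1 and 2. For all 3 RNAs both libraries numbered 2 were above both numbered 1 in CPM, while the types overlapped. Of all genes with a count, 28.5% had that arrangement of the numbers. U12 and U4atac had at most 3 counts in either library numbered 1. U6atac:29B, the U6 counterpart of the minor spliceosome, had a single count, in rRNA-depleted 2.

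CPM per kilobase of annotated gene divides by gene length alone, and the part of library size selection in it was not tested. On this scale U11 stood at 362 and 376 in rRNA-depleted 2 and polyA-enriched 2, against 6.61 and 6.31 in rRNA-depleted 1 and polyA-enriched 1. The highest major spliceosomal gene, snRNA:U2:34ABa, stood at 147 and 149 CPM per kilobase in rRNA-depleted 2 and polyA-enriched 2, against 12.4 and 15.4 in rRNA-depleted 1 and polyA-enriched 1. U11 was thus above the highest major snRNA entry in the libraries numbered 2 and below it in those numbered 1. This order is that of single entries of the count table and not of whole classes, because the copies of U1, U2, U4, U5 and U6 with 0 counts do not enter it.

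7SK RNA had the most counts of all members. Its gene (3R:7474553-7474996) lies between genes, 1330 bp from scaRNA:MeU5-C46, and at 444 bp it is the longest member. It had 105 and 12378 counts in rRNA-depleted 1 and 2, against 121 and 14595 counts in polyA-enriched 1 and 2. Per kilobase its level was 2296 and 2777 CPM in rRNA-depleted 2 and polyA-enriched 2, against 16.5 and 19.7 CPM in rRNA-depleted 1 and polyA-enriched 1. Its share of the members' counts was 18.1% and 56.2% in rRNA-depleted 1 and 2, against 21.7% and 57.7% in polyA-enriched 1 and 2.

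The RNA of RNase MRP, which cuts pre-rRNA, comes from a gene of 382 bp (3R:23730048-23730429) on the strand opposite to CG10365. It had 10 and 3656 counts in rRNA-depleted 1 and 2, against 12 and 4836 counts in polyA-enriched 1 and 2, and was near the count minimum in both libraries numbered 1. The RNA of RNase P, which trims the 5′ end of tRNA precursors, lies in an intron of ATPsynC (3R:31217364-31217662). It had 312 and 2968 counts in rRNA-depleted 1 and 2, against 264 and 3039 counts in polyA-enriched 1 and 2. RNase P RNA was the leading member in the libraries numbered 1, with 53.8% and 47.4% of the members' counts in rRNA-depleted 1 and polyA-enriched 1, and held 13.5% and 12.02% in rRNA-depleted 2 and polyA-enriched 2. RNase MRP RNA ran the other way, with 16.6% and 19.1% of the members' counts in rRNA-depleted 2 and polyA-enriched 2, against 1.72% and 2.15% in rRNA-depleted 1 and polyA-enriched 1. The order of these related enzymes thus differed between the numbers, and the composition of the members differed between numbers as well as their sum.

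The SRP RNA was not counted. The 7SL genes CR32864 (3R:6822500-6822798) and CR42652 (3R:6820131-6820429) are each 299 bp long, lie 2070 bp apart on opposite strands and had 0 counts in all 4 libraries. The lengths equal that of the RNase P RNA gene, which was counted in every library, and the part of length was not tested. As for other genes with copies, the 0 counts are those of the entries and not a level of the RNA. U7 RNA, in an intron of Eip63E, had 2 and 12 counts in rRNA-depleted 1 and 2, against 2 and 7 counts in polyA-enriched 1 and 2. The U3 entry, snRNA:U3:22A, had no count and was not matched to the annotation used here.

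By their names, 9 of the 15 scaRNAs guide methylation and 6 pseudouridylation, with 7 directed at U2, 4 at U5, 2 at U1 and 1 each at U4 and U6. A count in at least 1 library was seen for 14 of them, and MeU1b-A234 had none. The U5 guides held 37 and 975 counts in rRNA-depleted 1 and 2, against 30 and 886 counts in polyA-enriched 1 and 2. The more numerous U2 guides held 12 and 55 counts in rRNA-depleted 1 and 2, against 10 and 47 counts in polyA-enriched 1 and 2. Most counts of the U5 guides fell on 1 RNA. scaRNA:MeU5-C46 (3R:7472907-7473222), named for methylation of U5 and placed in an intron of CG1142, had 21 and 959 counts in rRNA-depleted 1 and 2, against 23 and 879 counts in polyA-enriched 1 and 2, or 90.0% of all scaRNA counts. At 316 bp it is also the longest scaRNA. scaRNA:MeU2-48, in an intron of hfp, had 7 and 33 counts in rRNA-depleted 1 and 2, against 4 and 30 counts in polyA-enriched 1 and 2. scaRNA:PsiU5-44, in an intron of the splicing regulator tra2, had 16 and 7 counts in rRNA-depleted 1 and 2, against 7 and 2 counts in polyA-enriched 1 and 2. It was the only member for which both rRNA-depleted libraries were above both polyA-enriched libraries in CPM, an arrangement that 7.99% of all genes with a count had, and 1 of 34 members is below that share. PsiU2-55, in an intron of the U5 snRNP protein gene Prp8, had 4 and 13 counts in rRNA-depleted 1 and 2, against 1 and 7 counts in polyA-enriched 1 and 2, and PsiU1-6 had 2 and 12 counts in rRNA-depleted 1 and 2, against 1 and 9 counts in polyA-enriched 1 and 2. The other 9 scaRNAs (scaRNA:PsiU2-38.40.42, scaRNA:PsiU2-35.45, MeU4-A65, MeU2-C28, MeU5-G38, MeU5-U42, PsiU6-40, MeU2-C41 and MeU2-G25) had at most 6 counts in any library.

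**Figure D2:**
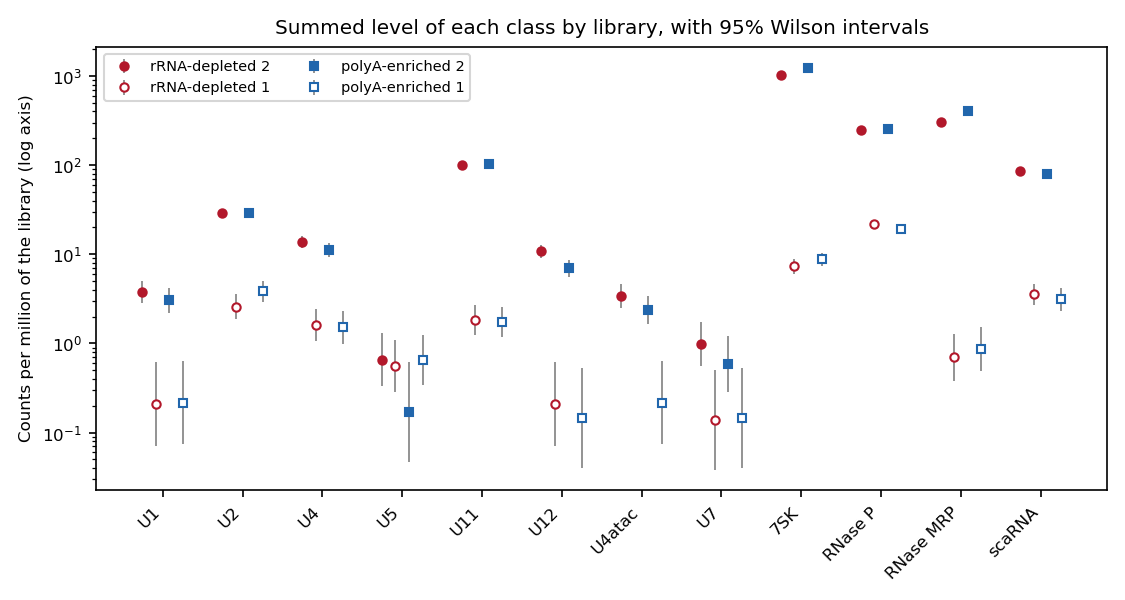
Summed CPM of each class of small RNA in each library on a log axis, with 95% Wilson intervals for counting error as bars, and no point where a class had 0 counts. The 7SK, RNase MRP, RNase P, U11 and scaRNA classes lie higher in rRNA-depleted 2 and polyA-enriched 2 than in rRNA-depleted 1 and polyA-enriched 1, while U5, with 27 counts in all, does not.

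The members with high counts were mostly the long ones. Of the 8 members longer than 200 bp, 6 had at least 100 counts in a library (7SK, RNase MRP RNA, MeU5-C46, RNase P RNA, U11 and U12), and the other members of that length are the 7SL genes with 0 counts. Of the 41 annotated members of up to 200 bp, 2 reached 100 counts in a library, U2:34ABa and U4:39B, and 13 had none. The long members held 82.2% and 96.7% of the members' counts in rRNA-depleted 1 and 2, against 80.1% and 97.5% in polyA-enriched 1 and 2. Across the 49 annotated members, length and total count had a Spearman rho of 0.31, and of 0.41 over the 47 members without the 7SL genes. The genes share libraries and some share a transcription unit, so these are descriptions. The part of library size selection or read length in them was not tested.

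**Figure D3:**
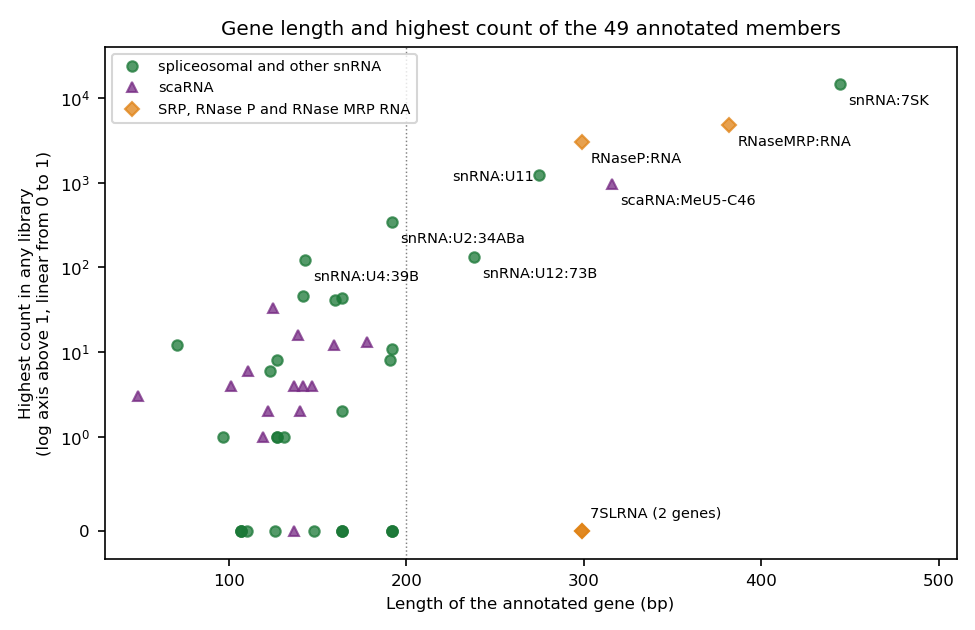
Annotated gene length in bp against the highest count in any library for the 49 annotated members, on a log axis that is linear between 0 and 1, with a dotted line at 200 bp. The 6 members above 100 counts to the right of the line are labelled together with the 7SL genes at 0, and U2:34ABa and U4:39B are the 2 labelled members left of it.

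By position, 16 members lie between genes, 25 lie within another gene on the same strand and 8 only within a gene on the opposite strand. None of the 25 overlaps an exon of its host on that strand, and 14 of the 15 scaRNAs are of this intronic kind. A dense group lies inside sick on 2L, where 5 snRNA genes for U2, U4 and U5 occupy 5807 bp. Its members on the strand of sick, U4:38AB, U2:38ABb and U5:38ABb, each had more counts in both libraries numbered 2 than in either numbered 1. Of these, U2:38ABb and U5:38ABb had at most 8 counts in any library. In CPM, 28.5% of all genes with a count had that arrangement. The gene sick itself had 4039 and 4386 counts in rRNA-depleted 2 and polyA-enriched 2, against 2602 and 2105 in rRNA-depleted 1 and polyA-enriched 1. The members on the opposite strand, U5:38ABa and U2:38ABa, had 1 count and 0 counts in all. The strand setting of the read counting is not given in the sources used here, so reads of a member and of a host transcript that crosses it cannot be told apart by these counts.

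Between the library types, no member was called with all 4 libraries, with or without the number in the model. The test was edgeR's quasi-likelihood test on genes that reached 10 counts in 2 or more libraries, with genes called at a Benjamini-Hochberg adjusted p under 0.05 and a log2 fold change beyond 1. Of the 12 members tested, 0 were called, where the background over all 9737 genes was 0% called, and at an unadjusted p under 0.05 there were 0 members and 1103 genes. DESeq2 called 0 members and 5.63% of genes. Without polyA-enriched 2, 4 members (RNase MRP RNA, 7SK, U11 and MeU5-C46) were called higher in rRNA-depleted libraries beside 0.145% of genes, and without any other library 0 members were called. The 12 log2 fold changes of rRNA-depleted over polyA-enriched ran from -0.35 (RNase MRP RNA) to 0.78 (U4:38AB), with a median of 0.21 beside 0.04 for all genes, and their standard errors ran from 1.27 to 2.96. These errors hold the split between numbers inside each type.

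Shares of the libraries gave the same picture. The members held a mean of 0.0927% ± 0.125 of counts in rRNA-depleted libraries and 0.109% ± 0.148 in polyA-enriched libraries (SD, n = 2 each, exact two-sided permutation test p = 1, where 2 against 2 libraries cannot go below 0.33). In rRNA-depleted 1 the share was 0.00406% (95% Wilson interval 0.00374% to 0.00440%). The corresponding share in polyA-enriched 1 was 0.00403%, so that the libraries numbered 1 differed by 2.74e-05 percentage points. In the libraries numbered 2, the difference of rRNA-depleted 2 minus polyA-enriched 2 was -0.0322 percentage points. For the 12 classes with at least 10 counts, the exact permutation p of the difference between types was 0.67 or 1.

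Within a number, single libraries can be set against each other with counting error alone. In the libraries numbered 2, the log2 ratio of rRNA-depleted over polyA-enriched CPM was -0.27 for 7SK (exact 95% interval -0.31 to -0.24) and -0.44 for RNase MRP RNA (-0.50 to -0.38). It was 0.64 for U12 (0.23 to 1.06), while the interval held 0 for RNase P RNA (-0.14 to 0.0027), U11 (-0.17 to 0.06), MeU5-C46 (-0.04 to 0.22), U2:34ABa (-0.24 to 0.21) and U4:39B (-0.21 to 0.57). In the libraries numbered 1 the ratio was -0.25 for 7SK (-0.64 to 0.14), and the interval held 0 for each of these 8 members. Of these 8 members, U12 in the libraries numbered 2 was the only one with a ratio above 0 beyond counting error. These intervals compare 2 libraries and carry no replicate error.

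With the library number as a block in the edgeR fit, the members' standard errors were 0.11 to 0.48, and 12.5% of all genes were called (0.349% higher and 12.1% lower in rRNA-depleted libraries) and again 0 of 12 members, with 2 members at an unadjusted p under 0.05 and 3791 genes. RNase MRP RNA then had a log2 fold change of -0.35 with a standard error of 0.13 and an adjusted p of 0.038, which is short of the fold threshold. U12 had 0.72 with a standard error of 0.32 and an adjusted p of 0.079. The markers of neighbouring tissues moved with the type: all 5 photoreceptor, all 5 fat body and all 4 tested muscle markers were called lower in rRNA-depleted libraries in this fit. Their summed levels were 377 and 248 CPM (photoreceptors), 1137 and 1978 CPM (fat body) and 3.57 and 10.2 CPM (muscle) in rRNA-depleted 1 and 2. In polyA-enriched 1 and 2 they were 2995 and 1979 CPM, 13400 and 11920 CPM, and 138 and 140 CPM. The neuronal markers elav, nSyb and brp check the labelled tissue. They summed to 4083 and 4348 CPM in rRNA-depleted 1 and 2, against 3466 and 4035 CPM in polyA-enriched 1 and 2. Between the numbers (2 over 1) their log2 fold changes were 0.48, -0.70 and 0.99, so the sum holds opposite directions. The glial markers repo, nrv2 and moody had 0.64, -0.69 and 0.75, and none of these neuronal and glial genes was called between the numbers. The part of tissue composition in the members' values was not tested.

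**Figure D4:**
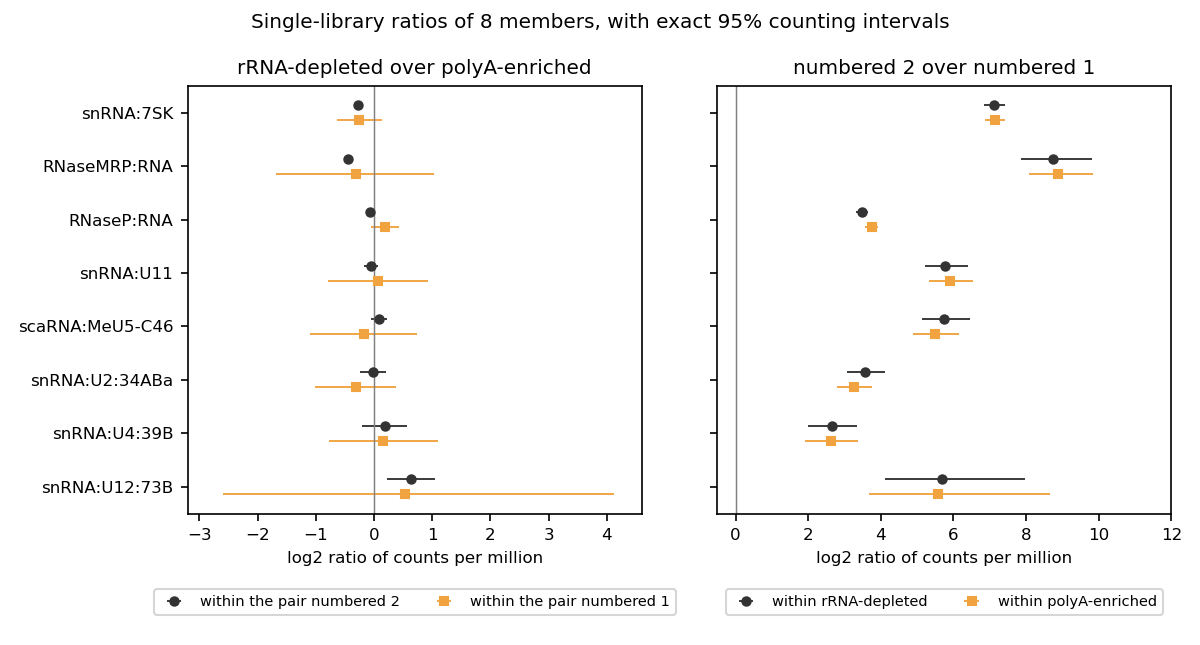
Log2 ratios of CPM between single libraries for the 8 members with at least 100 counts in a library, with exact 95% intervals for counting error as bars; the left panel gives rRNA-depleted over polyA-enriched within each number and the right panel gives numbered 2 over numbered 1 within each type. Ratios on the left lie near 0, with -0.44 for RNase MRP RNA and 0.64 for U12 in the libraries numbered 2, and those on the right lie between 2.62 (U4:39B) and 8.88 (RNase MRP RNA).

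Between the library numbers, the differences were large and alike in both types. RNase MRP RNA was 430-fold higher in numbered 2 than in numbered 1 within rRNA-depleted libraries (95% interval 234 to 898) and 471-fold within polyA-enriched libraries (269 to 911). 7SK was 139-fold and 141-fold higher, U11 54.8-fold and 59.5-fold, MeU5-C46 53.8-fold and 44.6-fold, and U12 51.4-fold and 47.9-fold within rRNA-depleted and within polyA-enriched libraries. Smaller ratios were found for U2:34ABa, at 11.9-fold and 9.62-fold, RNase P RNA, at 11.2-fold and 13.4-fold, and U4:39B, at 6.24-fold and 6.13-fold. The ratios thus spread over a wide range among members but differed little between the types for any of them.

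The edgeR test of the numbers called 8.33% of 9737 genes, 5.91% higher and 2.42% lower in numbered 2. All 7 members with at least 10 counts in all 4 libraries were called higher. RNase MRP RNA had a log2 fold change of 8.88 (SE 0.26, adjusted p = 0.012), 7SK 7.20 (SE 0.21, adjusted p = 0.012), and RNase P RNA 3.69 (SE 0.13, adjusted p = 0.019). U11 had 5.91, MeU5-C46 5.68, U2:34ABa 3.48 and U4:39B 2.70, with adjusted p-values of 0.012 to 0.031. A further 5 members passed the filter only through their counts in the libraries numbered 2, so their difference was bound to be large: 4 of them, U12, U4:38AB, U1:95Cc and MeU2-48, were called higher and U4atac, with 4.71 (SE 1.25, adjusted p = 0.083), was not. Under a filter of at least 10 counts in all 4 libraries, the 7 members were called beside 4.46% of genes called higher.

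The test rests on 2 libraries of each number, 1 of each type, which may share RNA, so its p-values measure the spread between those libraries, which may be technical. Leaving out 1 library left 1 residual degree of freedom and called 0 members without rRNA-depleted 1, without rRNA-depleted 2 or without polyA-enriched 2, and 4 members without polyA-enriched 1, where 12, 7, 7 and 12 members had an unadjusted p under 0.05 and 0%, 0%, 0% and 0.0539% of genes were called. Without any filter, 7 of 34 members were called, and 18 members and 3207 genes had an unadjusted p under 0.05. The log2 fold changes of the 7 members with at least 10 counts in all libraries stayed close when a library was left out, between 8.70 and 9.06 for RNase MRP RNA, 7.08 and 7.31 for 7SK, and 3.47 and 3.79 for RNase P RNA. Those of the low members did not. Without rRNA-depleted 1 and without polyA-enriched 1 they were 5.30 and 8.27 for U4:38AB, 3.75 and 8.19 for U4atac, and 5.41 and 3.86 for U1:95Cc. The values of U4:38AB and U4atac without polyA-enriched 1 were set against a single library with 0 counts, so they depend on the prior count of the fit. With DESeq2's size factors, U4:38AB (adjusted p = 0.0505) and MeU2-48 (adjusted p = 0.063) were not called. What the number stands for in these libraries cannot be told apart from the files. The types are read from the library names and titles, and their match to the preparations was not tested.

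Without a test, both libraries numbered 2 lay above both numbered 1 in CPM for 25 of the 34 members with a count, where 28.5% of all genes with a count had that arrangement. The summed count was higher in numbered 1 for 6 members: U2:14B, PsiU5-44 and the U5 genes 63BC, 38ABa, 34A and 23D. Counts were at most 16 in any library for each of them. The totals of the libraries numbered 2 were lower than those numbered 1, and the part of depth in these differences was not tested.

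The genes around these RNAs had smaller differences. The 26 protein-coding genes that hold a member on either strand are called hosts here, and 22 of them hold a member on the same strand. The 26 hosts had log2 fold changes between -0.84 and 1.46 in the test of the numbers, with a median of 0.35. Of these 26, 3 were called, sick (1.15), skd (1.38) and mask (1.46), beside 8.33% of all genes called. ATPsynC, which encodes the ring subunit of ATP synthase and hosts RNase P RNA, had 7084 and 7398 counts in rRNA-depleted 2 and polyA-enriched 2, against 16339 and 15714 counts in rRNA-depleted 1 and polyA-enriched 1. Its log2 fold change was -0.84 (SE 0.14, adjusted p = 0.043), opposite in sign to the 3.69 of the RNA in its intron. CG1142, the host of MeU5-C46, had 268 and 185 counts in rRNA-depleted 2 and polyA-enriched 2, against 428 and 384 counts in rRNA-depleted 1 and polyA-enriched 1, fewer than its intronic scaRNA in the libraries numbered 2. All 10 tested members with a host, of which 7 lie on the strand of the host, had a larger log2 fold change than the host. U11, U12 and RNase MRP RNA lie on the opposite strand, and 5 members had passed the filter through the libraries numbered 2 alone.

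**Figure D5:**
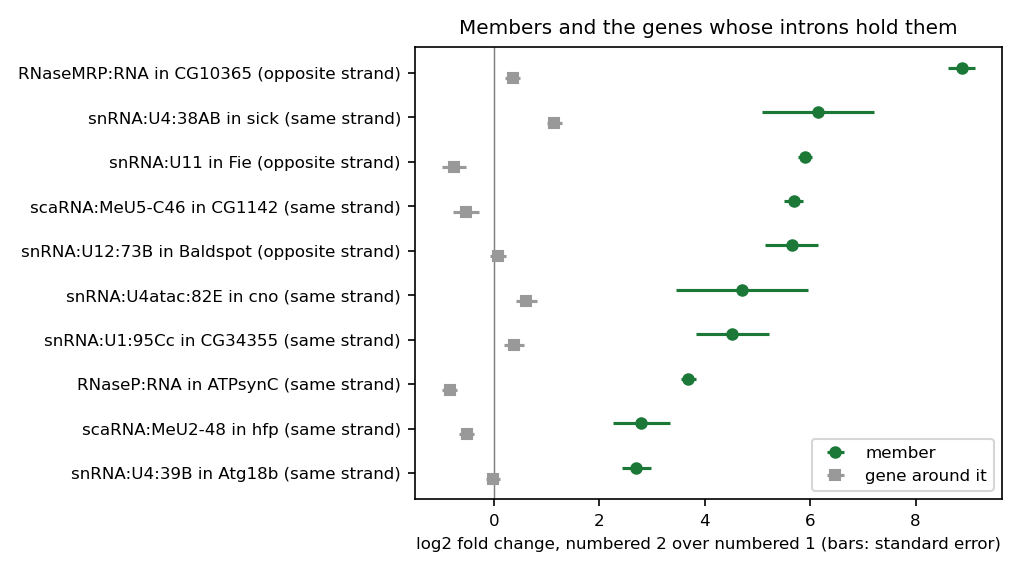
Log2 fold change of numbered 2 over numbered 1 for 10 members (circles) and their host genes on the same or the opposite strand (squares), from the edgeR fit, with standard errors as bars. Each member lies above its host, as for RNase P RNA at 3.69 and ATPsynC at -0.84.

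The protein partners of these RNAs were taken from lists of 82 genes for the Sm core, the snRNPs, snRNA transcription and assembly, 7SK and P-TEFb, SRP, RNase P and MRP, and scaRNPs. Of these, 78 were found in the table and 75 could be tested. Between the types, 0 of 75 were called with or without the block, with log2 fold changes between -0.53 and 0.40. In the test of the numbers 2 were higher and 4 lower, or 6 of 75 beside 8.33% of all genes called, so the partners together were near the background, with a median log2 fold change of -0.04 beside 0.05 for all genes.

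By list, 2 of 7 Sm core genes were lower in numbered 2, led by SmB at -1.06 (SE 0.15, adjusted p = 0.037). Of the U4/U6.U5 proteins, 1 of 9 was higher, U4-U6-60K at 1.07 (SE 0.13, adjusted p = 0.033), and Prp8, the most abundant and the core of the catalytic centre, had 0.64 (adjusted p = 0.058). Of the transcription and assembly factors, 1 of 21 tested was higher, the Integrator subunit IntS6 at 1.44 (SE 0.12, adjusted p = 0.030). Of 8 SRP and SRP receptor genes 1 was lower, SrpRbeta at -1.02 (SE 0.17, adjusted p = 0.042), and of 9 scaRNP and Cajal body genes 1 was lower, CG7637 at -1.85 (SE 0.28, adjusted p = 0.038), the Nop10 subunit of the pseudouridylation complex. No gene was called among 13 U1 and U2 proteins, 4 proteins of 7SK and P-TEFb or 4 of RNase P and MRP. The most abundant gene of the 7SK list, CycT, had 3399 and 3836 counts in rRNA-depleted 2 and polyA-enriched 2, against 2861 and 2604 counts in rRNA-depleted 1 and polyA-enriched 1, a log2 fold change of 0.71 that is short of the threshold.

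The most abundant genes of the other lists moved little between the numbers, and none was called. SmD2, a protein of the Sm ring that surrounds most snRNAs, had 750 and 598 counts in rRNA-depleted 2 and polyA-enriched 2, against 866 and 893 counts in rRNA-depleted 1 and polyA-enriched 1 (log2 fold change -0.07). snRNP-U1-70K, which binds U1 RNA, had 1407 and 1275 counts in rRNA-depleted 2 and polyA-enriched 2, against 1861 and 1683 counts in rRNA-depleted 1 and polyA-enriched 1 (-0.09). Ars2, a partner of the nuclear cap-binding complex, had 2247 and 2086 counts in rRNA-depleted 2 and polyA-enriched 2, against 2373 and 2358 counts in rRNA-depleted 1 and polyA-enriched 1 (0.18). SmD2, snRNP-U1-70K and Ars2 thus had lower counts in both libraries numbered 2, where the library totals were also lower. Prp8 had higher counts there, with 2303 and 2110 in rRNA-depleted 2 and polyA-enriched 2, against 1891 and 1613 in rRNA-depleted 1 and polyA-enriched 1. Srp54k, the SRP subunit that binds signal peptides, had 970 and 873 counts in rRNA-depleted 2 and polyA-enriched 2, against 944 and 973 counts in rRNA-depleted 1 and polyA-enriched 1 (0.25). Rpp25, listed as CG9422 and a protein of RNase P and MRP, had 353 and 328 counts in rRNA-depleted 2 and polyA-enriched 2, against 349 and 293 counts in rRNA-depleted 1 and polyA-enriched 1 (0.39). Nopp140, a chaperone of the Cajal body and nucleolus, had 536 and 676 counts in rRNA-depleted 2 and polyA-enriched 2, against 622 and 757 counts in rRNA-depleted 1 and polyA-enriched 1 (0.12). The 7SK, RNase P and RNase MRP RNAs, by contrast, were 11.2-fold to 471-fold higher in CPM in the libraries numbered 2.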

How the data were processed

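Per the submitters' processing notes and the study's methods, reads of 100 bp were trimmed (Trimmomatic) and mapped with STAR on dm6, and the table the authors deposited holds unnormalized featureCounts read counts per gene and library. The annotation, the strand setting and the handling of reads with several matches are not given in the sources used here. Columns were assigned by library name, with 0 columns left over; 2 libraries of S2 cells are not analysed here. Of 16729 rows, 4 were left out (Dscam1 and para were blank, each followed by a broken row). Positions and lengths came from the Ensembl annotation of BDGP6, which has dm6 coordinates; 12510 genes matched by symbol, 3991 by an older symbol and 224 not at all, and 49 of the 50 members matched. Sequences were not used.

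Tests used edgeR 4.0.16 in R 4.3.3 (quasi-likelihood, TMM), with DESeq2 1.42.0 as the alternative tool, on the whole table with genes at 10 counts or more in 2 libraries, called at an adjusted p under 0.05 and a log2 fold change beyond 1. A standard error is the fold change over the root of the F statistic. Single values were compared by exact permutation of 2 against 2 libraries. Shares have 95% Wilson intervals and ratios of 2 libraries exact binomial intervals; these and the floor of 3 counts cover counting error only. Other steps used Python 3.11.15, scipy 1.17.1 and pandas 2.3.3. On simulated counts with 200 changed genes, 100% were recovered among 9588 genes (types) and 9599 genes (numbers), with 0 other calls. The simulation gave all genes the same small spread and held no difference between numbers in the test of types. Its recovery is thus a check of the code and not a measure of power in these data.

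The study's methods say that RNA was split between library types, and the titles number the libraries; that a number marks 1 RNA is not given in the sources used here. Deviations of same-numbered libraries from their type means had a Pearson r of 0.90 across 9737 genes, a single value, since with 2 libraries a type both pairs give the same r. The members, the comparison of numbers and the partner and marker lists were chosen with earlier results of these data known. Every member is named; those with 100 counts or more in a library are described in full. Of each partner list, the called gene with the largest absolute log2 fold change and the most abundant gene are named.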

Additional observations from a re-analysis of the deposited data

How the results depend on the processing

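Limits. The members differ by number far more than by type, and no type or number has more than 2 libraries. Differences between types had standard errors of 1.27 or more on the log2 scale without the number in the model, and of 0.11 to 0.48 with it. Members under 10 counts in both libraries numbered 1 carry little information on a ratio. The planned comparison of the sequences of gene copies, with windows of the read length or of 50 bases, was not run, since no genome sequence was used here.

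Between the types, leaving out 1 library called 0 to 4 members and turned every direction. The lowest and highest log2 fold changes were -8.22 and 7.55 for RNase MRP RNA, -6.44 and 5.9997 for 7SK, -4.89 and 4.98 for U11, -4.72 and 4.71 for MeU5-C46, -2.70 and 2.92 for RNase P RNA, -2.76 and 2.48 for U2:34ABa, -1.70 and 2.11 for U4:39B and -0.26 and 1.70 for U12. Fold changes near 0 also changed sign: with library totals they were -0.0419 (U2:34ABa), -0.0515 (U11) and -0.0511 (RNase P RNA), with no filter -0.0044, -0.0251 and -0.0153, and with 10 counts in all libraries -0.0315, -0.0495 and -0.0448, for the same 3 RNAs in that order. The sign of the difference in shares turned likewise. The lowest and highest differences in percentage points were -0.121 and 0.0887 for all members, -0.0719 and 0.0505 for 7SK, -0.0258 and 0.0150 for RNase MRP, -0.0124 and 0.0114 for RNase P, -0.00527 and 0.00490 for U11, -0.00380 and 0.00448 for scaRNAs, -0.00139 and 0.00125 for U2, -0.000473 and 0.000750 for U4, -0.000333 and 0.000725 for U12, -0.000142 and 0.000216 for U1, -0.000129 and 0.000209 for U4atac, -2.28e-05 and 6.20e-05 for U7, and -4.19e-06 and 4.40e-05 for U5. A library left out removes one side of the split by number, which by construction moves the mean of its type.

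With the replicate block, 0 members and 0 protein partners were called, as without it. U2:34ABa turned to -0.0235. Within the pair numbered 1, the differences in shares turned to 2.74e-05 (all members), 0.000273 (RNase P), 8.24e-06 (U11), -7.19e-07 (U1), -9.15e-06 (U5), -2.17e-05 (U4atac) and -4.79e-07 points (U7).

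Between the numbers, 7 members were called with no filter, 7 with 10 counts in all libraries, where only 7 could be tested, 0 at an adjusted p under 0.01, and 0 to 4 when 1 library was left out. With no filter U4:39B had a log2 fold change of 2.56 and lost its call. DESeq2's size factors gave 9 members (without U4:38AB and MeU2-48). DESeq2 and the library type as a covariate each gave 12 (with U4atac). Library totals and no fold threshold gave 11, as in the report. At an unadjusted p under 0.05 there were 3069 (size factors), 2956 (DESeq2), 5839 (covariate) and 3552 (library totals) of 9737 genes. Shares of all genes called are not given for these fits. The 12 include the 5 members that passed the filter only through the libraries numbered 2. Asking for 10 counts in place of 1 lowered the members seen to 8 and 15 in rRNA-depleted 1 and 2, against 8 and 12 in polyA-enriched 1 and 2. Between the types, 0 members were called with DESeq2, its size factors, library totals, no filter, 10 counts in all libraries, an adjusted p under 0.01 or no fold threshold. Leaving out rRNA genes or 7SK kept the direction of the differences in shares.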

Other observations

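The abundance order of the members depended on the number. In rRNA-depleted 2 and polyA-enriched 2 the order by CPM per kilobase of gene was 7SK first (2296 and 2777), followed by RNase P RNA (817 and 859) and RNase MRP RNA (788 and 1069), then U11 (362 and 376) and MeU5-C46 (250 and 235). In rRNA-depleted 1 and polyA-enriched 1 RNase P RNA came first (72.996 and 63.9), followed by 7SK (16.5 and 19.7), U2:34ABa (12.4 and 15.4) and U4:39B (11.3 and 10.1), with RNase MRP RNA at 1.83 and 2.27. RNase P RNA and RNase MRP RNA swapped places between the types in the libraries numbered 2.

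Genes annotated as rRNA held 45 and 156 counts in rRNA-depleted 1 and 2, against 35 and 108 counts in polyA-enriched 1 and 2, so they too were counted more often in the libraries numbered 2, at much lower ratios than 7SK or RNase MRP RNA. The highest share was 0.00128% of counts, in rRNA-depleted 2. The handling of reads that match several places is not given, so these are counts for those entries and not a level of rRNA. The genes Pbp49, a subunit of the complex that starts snRNA transcription, Tgs1, which methylates the cap of snRNAs, and Rpp20, a subunit of RNase P and MRP, were listed at 0 counts in all 4 libraries.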
